A study of Saccharomyces cerevisiae with 14 samples.

Results

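The genes that make ergosterol and fatty acids were followed through a wine fermentation. They are 40 of the 5449 S. cerevisiae genes on the array with a probe set of their own, and they were taken by gene symbol from the platform annotation, with 1 probe set for each. All 40 were measured on every array. They comprise 10 early sterol genes (acetyl-CoA to squalene), 5 late sterol enzymes that consume oxygen, 8 other late sterol genes, 2 electron carriers, 2 sterol esterification enzymes, 6 fatty acid synthesis genes, 4 genes of fatty acid activation and 3 regulators.

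Ergosterol is the sterol of yeast membranes, and it is built from acetyl-CoA through mevalonate, farnesyl pyrophosphate and squalene. The steps up to squalene need no oxygen, while squalene epoxidation and several later demethylation and desaturation steps do. Fatty acids are also built from acetyl-CoA without oxygen, but the single desaturase of yeast, Ole1, needs it, so yeast fermenting a must without air depends on the sterols and unsaturated fatty acids it made earlier or can take up.

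M2, an industrial MATa/alpha wine strain, and M2 nsf1∆, a homozygous nsf1::KanMX deletion mutant of it, fermented sterile-filtered Riesling must without shaking. NSF1 encodes a zinc finger transcription factor. Cells were sampled 24 h after inoculation and when 20% and 85% of the sugars had been fermented (the labels say glucose). Each strain gave 7 arrays, a pair for each of the earlier stages and 3 for 85%, which the labels call biological replicates, and the mutant is represented by 1 strain.

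The deposited values are RMA log2 intensities, so a difference of 1 is a doubling of signal, and they are relative to the total RNA of the sample. In such bulk values a change in transcripts per cell cannot be told apart from a change in the rest of the RNA. Array medians lay between 8.87 and 8.95, and background was taken from the probe sets for S. pombe, whose median was 3.06 and whose 95th percentile was 3.62. Member values ran from 7.10 (FAA3) to 13.79 (OLE1), so all members stood above that background. The deleted gene, NSF1, read 8.92 to 13.19 on the M2 arrays and 2.95 to 5.90 in nsf1∆, where replicate 3 at 85% was the highest. Of 12 haploid-specific genes, 10 were called higher at 85% than at 24 h in M2 and 1 lower, and of 12 sporulation genes 11 higher and 0 lower. In nsf1∆ the counts were 10 and 1, and 11 and 1. Of all probe sets 38.0% were higher and 35.2% lower in M2, and 37.0% and 36.0% in nsf1∆. Several of these marker genes were dim, such as SSP1 and STE6, with means of 4.30 and 4.39 over all arrays. Their part in the results below was not tested.

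The sterol pathway fell late. Between 24 h and 85% in M2, 30 of the 40 members fell and 5 rose (limma, adjusted p under 0.05 over 5498 probe sets), against 35.2% of all probe sets that fell and 38.0% that rose. The median log2 change of the members was -0.97, where that of all probe sets was 0.05. Of the 23 genes from acetyl-CoA to ergosterol, 22 fell, with a median of -1.23. In nsf1∆, 31 of 40 fell and 6 rose over the same interval, against 36.0% and 37.0% of all probe sets, and the member median was -1.19.

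**Figure D1:**
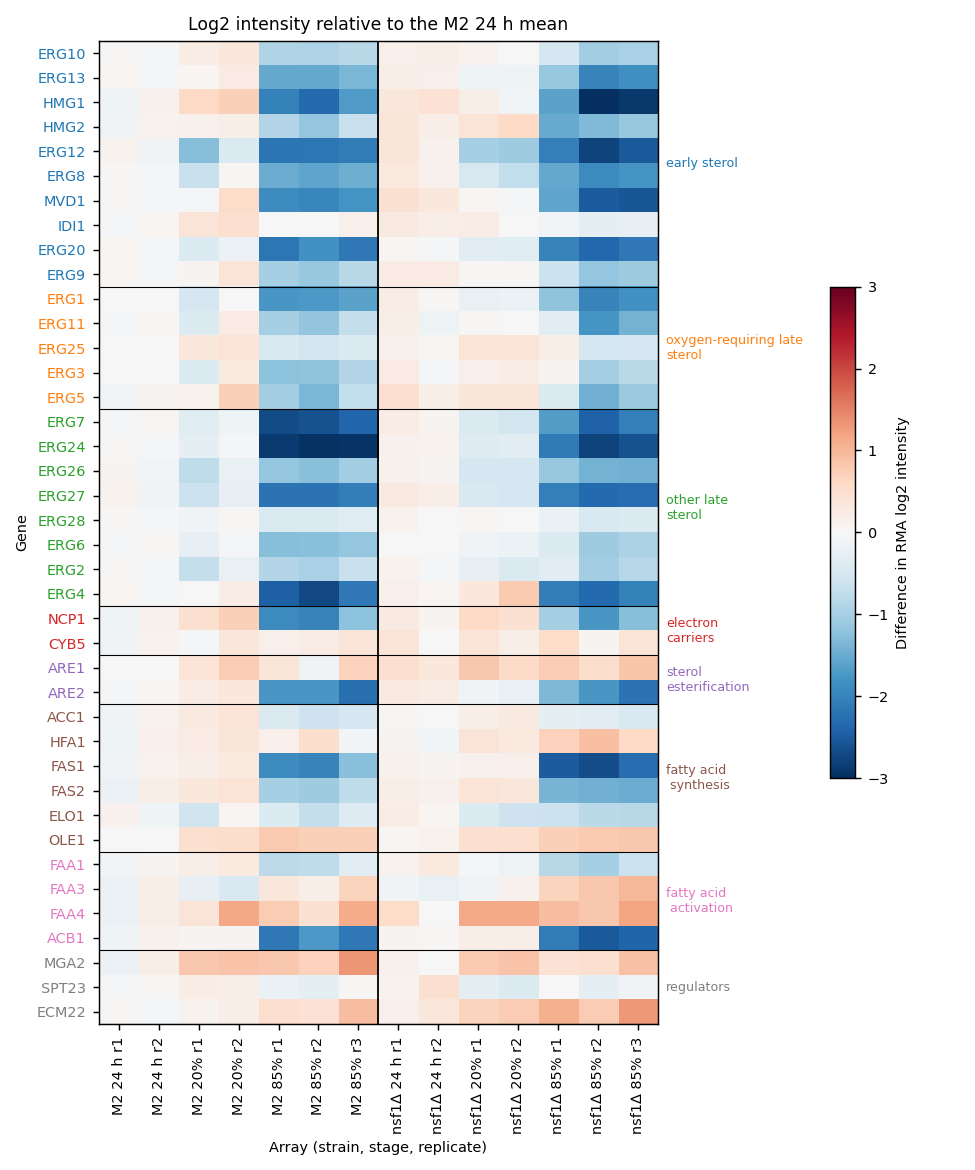
Difference in RMA log2 intensity of each of the 40 members (rows, grouped by role) from its mean on the 2 M2 24 h arrays, for each of the 14 arrays (columns, labelled by strain, stage and replicate number r). Blue is lower and red is higher; the colour scale ends at -3 and 3. Most sterol rows turn blue at 85% in both strains, though IDI1 stays near 0 in M2 and ERG25 and ERG3 lie above 0 on nsf1∆ 85% replicate 1, while OLE1, FAA4, MGA2 and ECM22 are red there.

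Nearly all of this fall came after the 20% sample. From 24 h to 20% in M2, 3 members fell and 7 rose, against 26.4% and 26.5% of all probe sets, with a median of 0.16. From 20% to 85%, 30 fell and 2 rose, against 31.9% and 33.1% of all probe sets, with a median of -1.07. In nsf1∆ the earlier step had 8 members that fell and 3 that rose (18.3% and 19.9% of all probe sets) and the later step 29 and 2 (33.9% and 31.6%), with medians of -0.05 and -0.94. These steps share the 20% arrays.

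**Figure D2:**
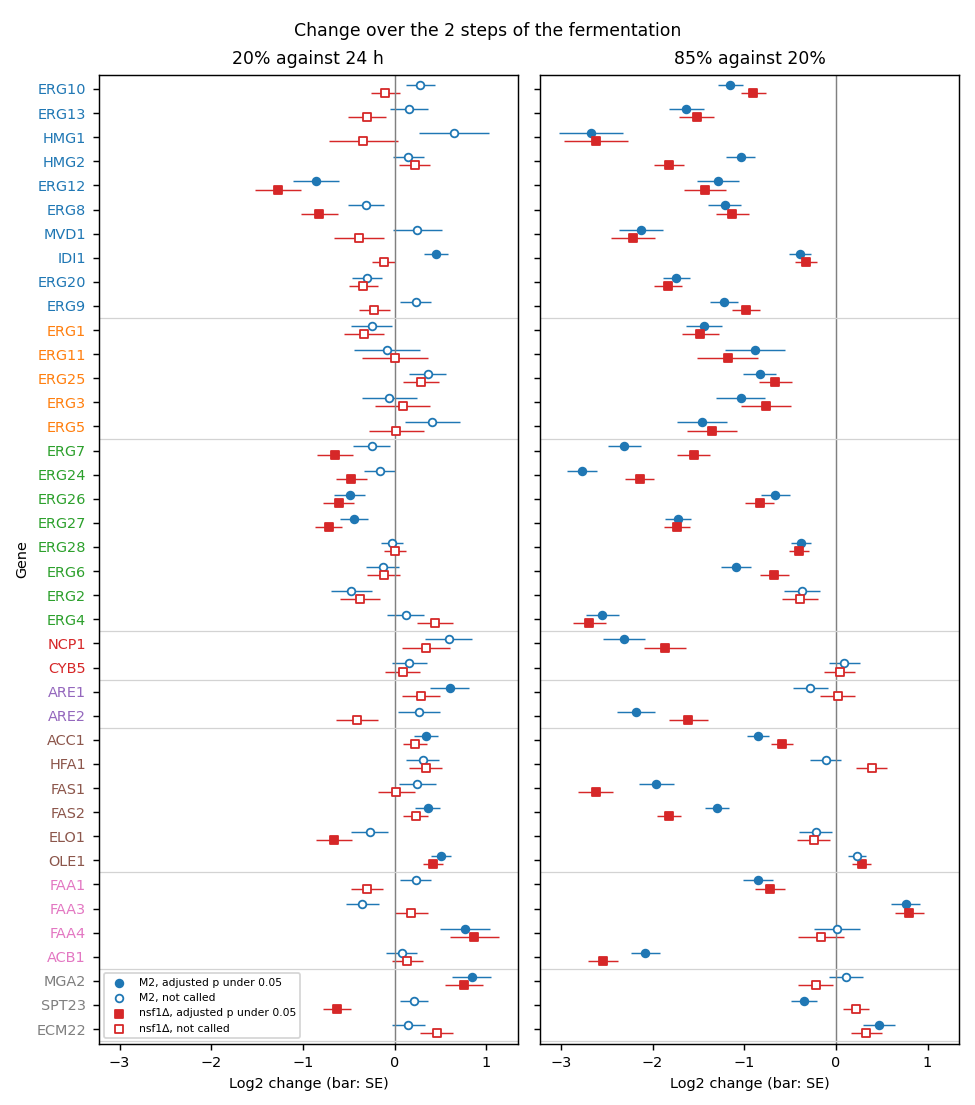
Log2 change of each member from 24 h to 20% (left) and from 20% to 85% (right), with M2 as circles and nsf1∆ as squares. Bars are standard errors from the limma fit, and filled symbols have an adjusted p under 0.05. On the left the sterol genes scatter around 0 in M2, and 17 of 23 lie below 0 in nsf1∆, where 6 are called. On the right they lie below 0 in both strains.

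The early sterol genes, from acetyl-CoA to squalene, had a median change of -1.50 between 24 h and 85% in M2, and 9 of 10 fell. The steepest was ERG12 (YMR208W), mevalonate kinase, which read 11.74 and 11.51 at 24 h, then 10.34 and 11.19 at 20%, then 9.44, 9.46 and 9.52 at 85%. The 3 stages did not overlap, and the fall from 24 h to 85% was 4.43-fold (log2 change -2.15, SE 0.23, adjusted p = 1.6e-06). ERG12 was also the only early gene that had already fallen at 20% in M2 (-0.86, SE 0.25, adjusted p = 0.011). In nsf1∆ it read 11.98 and 11.75, then 10.64 and 10.56, then 9.57, 8.85 and 9.10, again without overlap, a fall of 2.69 on the log2 scale (SE 0.23, adjusted p = 1.9e-07) over the whole interval.

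Other large early falls in M2 were those of ERG20, farnesyl pyrophosphate synthase (-2.04, SE 0.15), HMG1, an HMG-CoA reductase (-2.02, SE 0.35), MVD1, mevalonate pyrophosphate decarboxylase (-1.88, SE 0.24), ERG8, phosphomevalonate kinase (-1.51, SE 0.18), and ERG13, HMG-CoA synthase (-1.48, SE 0.19). HMG2, the second HMG-CoA reductase gene, fell by 0.90 (SE 0.16), ERG9, squalene synthase, by 0.99 (SE 0.15), and ERG10, acetoacetyl-CoA thiolase, by 0.88 (SE 0.14). All of these had adjusted p-values of 0.00017 or less.

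The exception in M2 was IDI1 (YPL117C), which interconverts isopentenyl and dimethylallyl pyrophosphate. It read 12.38 and 12.48 at 24 h, then 12.82 and 12.94 at 20%, then 12.45, 12.44 and 12.58 at 85%, so the 20% arrays were the highest and the outer stages overlapped. IDI1 rose to 20% (0.45, SE 0.13, adjusted p = 0.0099), fell again to 85% (-0.39, SE 0.12, adjusted p = 0.0094), and ended at 0.06 from its 24 h level (95% interval -0.20 to 0.31). In nsf1∆ the change from 24 h to 85% was -0.45 (SE 0.12, adjusted p = 0.0033), and 10 of 10 early genes fell there, with a median of -1.89.

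The 5 oxygen-requiring sterol enzymes all fell between 24 h and 85% in M2, with a median of -1.05, and 0 of 5 passed the test from 24 h to 20% (0 also at an unadjusted p under 0.05). ERG1 (YGR175C), the squalene epoxidase, read 12.96 and 12.97 at 24 h, then 12.46 and 12.97 at 20%, then 11.21, 11.25 and 11.35 at 85%. Every 85% array lay more than 1 log2 unit below every earlier one, and the fall from 24 h was 3.24-fold (-1.70, SE 0.20, adjusted p = 4.5e-06). In nsf1∆, ERG1 read 13.19 and 13.01, then 12.74 and 12.79, then 11.75, 10.97 and 11.15, and fell by 1.81 (SE 0.20, adjusted p = 2.4e-06). Of the oxygen-requiring enzymes it had the largest fall in both strains.

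ERG11 (YHR007C), the lanosterol 14-alpha-demethylase and the target of azole drugs, read 13.05 and 13.18, then 12.71 and 13.36, then 12.12, 11.93 and 12.41 in M2. The 20% arrays spanned both sides of the 24 h level, and the 85% arrays were the lowest (-0.96 from 24 h, SE 0.33, adjusted p = 0.018). In nsf1∆ its arrays read 13.29 and 12.96, then 13.16 and 13.11, then 12.81, 11.35 and 11.69, so that replicate 1 at 85% stood well above the others of its group. The change there was -1.17 (SE 0.33, adjusted p = 0.0058).

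ERG25 (YGR060W), the C-4 methyl sterol oxidase, had the smallest fall of the 5. In M2 it read 13.30 and 13.32, then 13.62 and 13.72, then 12.86, 12.74 and 12.90, which is -0.48 from 24 h (SE 0.18, adjusted p = 0.029). In nsf1∆ it read 13.44 and 13.38, then 13.70 and 13.69, then 13.52, 12.78 and 12.80. Replicate 1 at 85% lay above the 24 h arrays and the others below them, and the change of -0.37 did not pass (95% interval -0.76 to 0.02, adjusted p = 0.077).

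ERG3 (YLR056W), the C-5 sterol desaturase, read 12.28 and 12.28, then 11.87 and 12.57, then 11.04, 11.07 and 11.41 in M2, and 12.53 and 12.22, then 12.43 and 12.51, then 12.36, 11.29 and 11.48 in nsf1∆. Its fall from 24 h was 1.11 on the log2 scale in M2 (SE 0.27, adjusted p = 0.0024) and 0.67 in nsf1∆ (SE 0.27, adjusted p = 0.041), where replicate 1 at 85% overlapped the 24 h arrays. ERG5 (YMR015C), the C-22 sterol desaturase, read 12.38 and 12.55, then 12.56 and 13.18, then 11.42, 11.10 and 11.73 in M2, and 12.97 and 12.65, then 12.83 and 12.83, then 12.06, 11.03 and 11.35 in nsf1∆. The 85% arrays of ERG5 were the lowest in both strains, at -1.05 (SE 0.27, adjusted p = 0.0032) and -1.33 (SE 0.27, adjusted p = 0.00059) from 24 h.

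OLE1 (YGL055W), the delta-9 fatty acid desaturase, also needs oxygen but went the other way. It read 12.99 and 12.96 at 24 h, then 13.45 and 13.51 at 20%, then 13.75, 13.68 and 13.70 at 85% in M2, and 13.01 and 13.07, then 13.46 and 13.47, then 13.68, 13.76 and 13.79 in nsf1∆. The stages did not overlap in either strain. OLE1 rose 1.66-fold from 24 h to 85% in M2 (0.73, SE 0.10, adjusted p = 1.4e-05) and 1.63-fold in nsf1∆ (0.70, SE 0.10, adjusted p = 2.2e-05), and most of the rise was present at 20% (0.51 and 0.42, both SE 0.11, adjusted p = 0.0016 and 0.0078). It was the brightest member, and compression of its signal near the upper end of the scale was not tested.

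**Figure D3:**
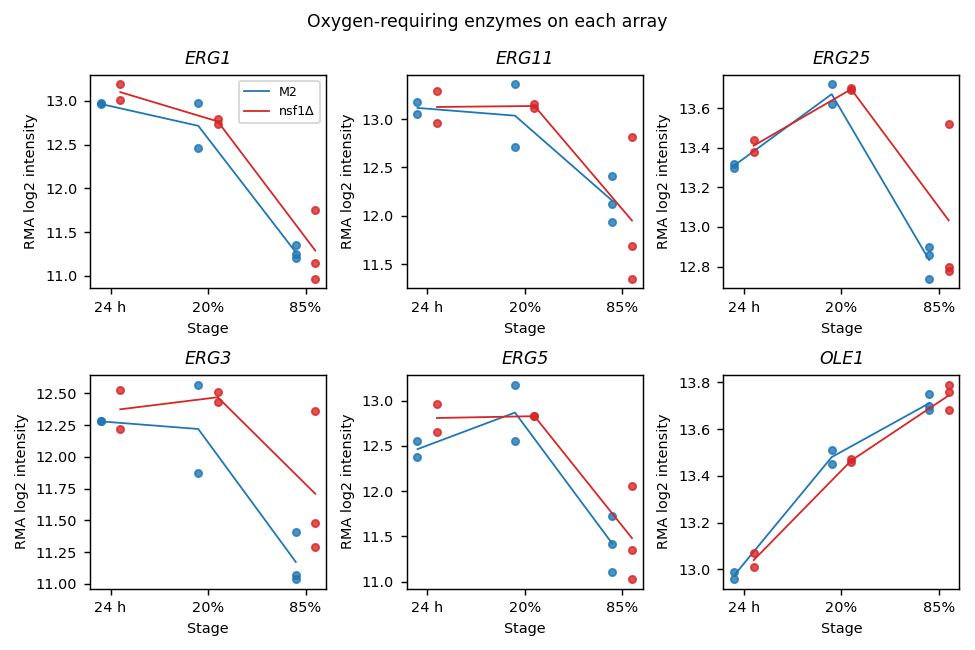
RMA log2 intensity of the 6 oxygen-requiring enzymes on each array (points) at 24 h, 20% and 85%, with lines through the group means, M2 in blue and nsf1∆ in red. Each panel has its own vertical scale. The ERG genes drop after 20% while OLE1 climbs at each stage, and 1 nsf1∆ array at 85% stands above the other two in the 5 ERG panels.

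The other 8 late sterol genes had a median change of -1.70 between 24 h and 85% in M2, and 8 of 8 fell. ERG24 (YNL280C), the C-14 sterol reductase that acts just after Erg11, had the largest fall of the 40 members in M2. It read 12.32 and 12.26 at 24 h, then 12.02 and 12.24 at 20%, then 9.41, 9.32 and 9.36 at 85%, a fall of 7.61-fold (-2.93, SE 0.16, adjusted p = 4.2e-09). In nsf1∆ it read 12.41 and 12.40, then 11.91 and 11.96, then 10.17, 9.52 and 9.68, a fall of 6.13-fold (-2.62, SE 0.16, adjusted p = 9.9e-09), where the estimates for HMG1 (-2.96, SE 0.35) and ERG12 (-2.69) were larger. Both strains dropped by more than 1 log2 unit between the 20% and the 85% arrays, with no overlap.

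ERG7, lanosterol synthase (-2.56, SE 0.18), ERG4, the C-24(28) sterol reductase of the last step (-2.43, SE 0.18), and ERG27, the 3-keto sterol reductase (-2.17, SE 0.14), fell nearly as far in M2, with adjusted p-values of 5.1e-08 or less. ERG6, the C-24 sterol methyltransferase (-1.23, SE 0.16), and ERG2, the C-8 sterol isomerase (-0.84, SE 0.20), fell less, and the scaffold protein gene ERG28 fell least (-0.42, SE 0.11, adjusted p = 0.0047). ERG28, ERG26 and ERG27 belong to the C-4 demethylation complex together with Erg25, and their changes ranged from -0.42 to -2.17.

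ERG26 (YGL001C), the C-3 sterol dehydrogenase, fell at each step in M2. It read 12.65 and 12.50, then 11.81 and 12.36, then 11.42, 11.32 and 11.53, without overlap, and its change from 24 h to 20% was -0.49 (SE 0.17, adjusted p = 0.027). ERG27 changed by -0.44 over that step (SE 0.15, adjusted p = 0.027). In nsf1∆, ERG7, ERG24, ERG26 and ERG27 fell from 24 h to 20%, by 0.47 to 0.72, and for ERG7 and ERG24 the difference between the strains in this step did not pass (adjusted p = 0.53 and 0.59). Without M2 20% replicate 1 or without M2 24 h replicate 1, 0 of the sterol genes fell over the earlier step in M2.

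The electron carriers parted. NCP1 (YHR042W), the NADPH-cytochrome P450 reductase that supplies Erg11 and Erg5, read 12.09 and 12.33, then 12.69 and 12.92, then 10.29, 10.21 and 10.98 in M2, and fell by 1.72 between 24 h and 85% (SE 0.23, adjusted p = 1.7e-05). In nsf1∆ it read 12.49 and 12.29, then 12.80 and 12.67, then 11.22, 10.47 and 10.93, with a change of -1.52 (SE 0.23, adjusted p = 5.4e-05). Its 85% arrays were the lowest in both strains. CYB5, cytochrome b5, which donates electrons to the desaturases, changed by 0.25 in M2 (95% interval -0.11 to 0.62, adjusted p = 0.20) and passed in no comparison.

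The sterol esterification genes parted as well. ARE2 (YNR019W), the acyltransferase that forms most sterol ester in growing cells, read 11.06 and 11.19, then 11.34 and 11.44, then 9.39, 9.39 and 8.86 in M2, and 11.40 and 11.35, then 11.03 and 10.90, then 9.77, 9.38 and 8.91 in nsf1∆. It fell by 1.91 (SE 0.21, adjusted p = 2.5e-06) and 2.02 (SE 0.21, adjusted p = 1.6e-06) from 24 h, and its 85% arrays lay below all others in both strains. ARE1 (YCR048W), the paralogous enzyme, read 9.60 and 9.62, then 10.03 and 10.38, then 9.97, 9.51 and 10.29 in M2. It rose to 20% (0.60, SE 0.21, adjusted p = 0.031), while at 85% its 3 arrays spanned the 24 h level (0.32, 95% interval -0.10 to 0.74, adjusted p = 0.16).

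Among the 6 fatty acid synthesis genes, 4 fell and OLE1 rose between 24 h and 85% in M2, with a median of -0.50, a smaller drop than the -1.05 to -1.70 of the sterol groups. FAS1 (YKL182W), the beta subunit of fatty acid synthase, read 12.88 and 13.07 at 24 h, then 13.17 and 13.26 at 20%, then 11.09, 10.97 and 11.71 at 85% in M2. The later step carried the whole fall, which was 3.29-fold from 24 h (-1.72, SE 0.19, adjusted p = 1.8e-06). FAS2 (YPL231W), the alpha subunit, read 12.27 and 12.60, then 12.75 and 12.85, then 11.45, 11.38 and 11.67, and fell 1.91-fold (-0.94, SE 0.13, adjusted p = 1.6e-05).

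ACC1, the acetyl-CoA carboxylase that makes malonyl-CoA, changed by -0.52 (SE 0.12, adjusted p = 0.0012) and ELO1, which lengthens medium-chain fatty acids, by -0.49 (SE 0.18, adjusted p = 0.025). In M2 ACC1, FAS2 and OLE1 rose from 24 h to 20%, ACC1 by 0.34 (SE 0.13) and FAS2 by 0.36 (SE 0.14), both with adjusted p = 0.041. Of the 23 sterol genes IDI1 alone was called upward in that step. HFA1 (YMR207C), the mitochondrial acetyl-CoA carboxylase, was dim, at 7.48 and 7.77, then 7.88 and 7.99, then 7.78, 8.15 and 7.54 in M2, where its stages overlapped and no step passed. HFA1 lies next to ERG12 in the genome, with 0 genes between them, and from 24 h to 85% in M2 HFA1 changed by 0.20 (adjusted p = 0.31). In nsf1∆, 2 of the 6 fatty acid synthesis genes rose over that interval, against 37.0% of all probe sets. They were OLE1 and HFA1, and HFA1 had the larger change (0.73), without overlap of its stages.

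The genes of fatty acid activation moved in both directions. ACB1 (YGR037C), the acyl-CoA-binding protein, read 12.70 and 12.95, then 12.90 and 12.90, then 10.68, 11.11 and 10.67 in M2, and 12.91 and 12.85, then 13.02 and 13.03, then 10.73, 10.31 and 10.42 in nsf1∆. All 85% arrays lay far below the rest, a fall of 4.01-fold in M2 (-2.00, SE 0.16, adjusted p = 8.8e-08) and 5.26-fold in nsf1∆ (-2.40, SE 0.16, adjusted p = 2.0e-08). FAA1, a long-chain acyl-CoA synthetase, fell as well (-0.63, SE 0.16, adjusted p = 0.0024, in M2).

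FAA4 (YMR246W), a second long-chain acyl-CoA synthetase, rose instead. It read 10.97 and 11.31, then 11.52 and 12.30, then 11.89, 11.60 and 12.26 in M2, where every later array was above the 24 h arrays. The change was 0.77 at 20% (SE 0.27, adjusted p = 0.028) and 0.78 at 85% (SE 0.25, adjusted p = 0.011), and in nsf1∆ 0.87 and 0.71 (adjusted p = 0.022 and 0.019). FAA3, a synthetase of the same family, rose by 0.41 at 85% in M2 (SE 0.16, adjusted p = 0.038) and by 0.98 in nsf1∆ (SE 0.16, adjusted p = 0.00011).

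MGA2 and SPT23 encode related membrane-bound activators of OLE1, and ECM22 encodes an activator of sterol genes. MGA2 (YIR033W) read 9.40 and 9.76, then 10.40 and 10.44, then 10.40, 10.28 and 10.91 in M2, and 9.70 and 9.59, then 10.37 and 10.44, then 10.02, 10.07 and 10.47 in nsf1∆. Every array of the later stages exceeded every 24 h array, and the change at 85% was 0.95 in M2 (SE 0.19, adjusted p = 0.00046) and 0.54 in nsf1∆ (SE 0.19, adjusted p = 0.019). ECM22 rose by 0.62 (SE 0.17, adjusted p = 0.0044) and 0.79 (SE 0.17, adjusted p = 0.00081). SPT23 changed by -0.14 in M2 (95% interval -0.44 to 0.16, adjusted p = 0.39) and by -0.41 in nsf1∆ (SE 0.14, adjusted p = 0.018).

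Related genes often had unlike values. The log2 changes from 24 h to 85% in M2 were -2.02 for HMG1 and -0.90 for HMG2, -1.91 for ARE2 and 0.32 for ARE1, -0.52 for ACC1 and 0.20 for HFA1, -0.63 for FAA1 and 0.78 for FAA4, and 0.95 for MGA2 and -0.14 for SPT23. Differences between partners were not tested, and neither was cross-hybridisation between them.

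Most calls at 85% held with any 1 array left out. From 24 h to 85%, 30 of the 35 calls held in M2, and those lost were ERG11 (without either M2 24 h array or M2 85% replicate 2), ERG25 (without either M2 24 h array or M2 85% replicate 1 or 2), FAA3 (without M2 24 h replicate 1 or M2 85% replicate 1 or 3), ELO1 (without M2 24 h replicate 1 or M2 85% replicate 2) and FAA4 (without M2 24 h replicate 1). In nsf1∆, 30 of 37 held, and those lost were ACC1, ERG3, ERG11 and ERG28, each without nsf1∆ 24 h replicate 1, and FAA4, MGA2 and SPT23, each without nsf1∆ 24 h replicate 2 and also without replicate 3 (FAA4, MGA2) or replicate 2 (SPT23) at 85%. ERG3 in nsf1∆ was the least secure and lost its call without any of 9 arrays, with adjusted p-values up to 0.22. From 20% to 85%, 25 of 32 calls held in M2 and 27 of 31 in nsf1∆. Those lost in M2 were ERG3, ERG11, ERG26, ERG28, IDI1, ECM22 and SPT23, each without M2 20% replicate 2, which leaves 1 array at that stage. ERG11 then changed by -0.55 and ERG3 by -0.69. Those lost in nsf1∆ were ERG3, ERG28, IDI1 and OLE1, each without nsf1∆ 20% replicate 1. Several of these calls were also lost without other arrays.

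The step from 24 h to 20% rested on few arrays. In M2, OLE1 and MGA2 were the 2 of 10 calls that held with any array left out, and the other 8 were all lost without M2 24 h replicate 1. In nsf1∆, ERG12 and ERG27 were the 2 of 11 that held.

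Replicate arrays differed along the sterol pathway as a whole. This was seen after the values were known and is given as a description. M2 20% replicate 1 was below replicate 2 in 23 of 23 sterol synthesis genes, where 49.0% of all probe sets were, and the median gap was 0.62 in the oxygen-requiring enzymes. It was the lower array in 7 of 11 genes of sterol uptake, transport and turnover and the higher in 4, by a median of 0.01. Of 7 heme genes and genes of low oxygen it was lower in 6 and higher in 1, by a median of 0.12. The genes named next were picked after their values were seen, and their gaps exceed those medians, so they do not stand for their lists. AUS1, a sterol importer, read 7.84 against 9.07, PDR11, its partner in sterol uptake, 6.91 against 8.04, and HEM13, a heme gene induced at low oxygen, 10.33 against 11.65.

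At 85%, nsf1∆ replicate 1 was the highest of its 3 arrays in 21 of 23 sterol genes, where 36.3% of all probe sets were, and exceeded the mean of the other 2 by a median of 0.58, or 0.87 in the 5 oxygen-requiring enzymes. Replicate 2 was the lowest in 20 of 23, where 38.3% of all probe sets were. Its median difference from the mean of the other 2 was -0.39, or -0.63 in the oxygen-requiring enzymes. Which of these arrays departs from the others cannot be told. M2 replicate 3 was likewise the highest in 21 of 23, where 45.8% of all probe sets were, by a median of 0.16. At 24 h, nsf1∆ replicate 1 exceeded replicate 2 in 20 of 23 sterol genes, where 49.3% of all probe sets did, and by a median of 0.31 in the oxygen-requiring enzymes, 5 of 5 of which were higher there. Of the 6 fatty acid synthesis genes, 3 were highest in replicate 1 of nsf1∆ at 85%, and their median gap was 0.03. The same array was the highest in 6 of 11 genes of sterol uptake, transport and turnover (median gap 0.14). It was the highest in 2 of 7 heme genes and genes of low oxygen (median gap -0.07). Leaving out nsf1∆ 85% replicate 1 moved the median change of the oxygen-requiring enzymes from 24 h to 85% in nsf1∆ from -1.17 to -1.60 and the count that fell from 4 to 5, and leaving out M2 20% replicate 1 moved their median from 24 h to 20% in M2 from -0.06 to 0.29.

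The comparison of the strains asks whether NSF1 affects these genes. At 24 h, 0 of 40 members passed (limma, 0 also at an unadjusted p under 0.05), against 0.0728% of all probe sets higher and 0.0546% lower in nsf1∆. At 20%, 0 of 40 passed and 4 had an unadjusted p under 0.05, against 0.182% higher and 0.164% lower. At 85%, 1 member was higher and 2 were lower in nsf1∆, against 4.95% and 3.89% of all probe sets, and 13 had an unadjusted p under 0.05. In either direction that is 3 of 40 members and 486 of 5498 probe sets, so the count of members does not stand out. The 3 called genes all belong to fatty acid synthesis.

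At 85%, FAS1 read 10.48, 10.32 and 10.68 in nsf1∆ against 11.09, 10.97 and 11.71 in M2, so every mutant array was below every M2 array. The difference was 1.70-fold (-0.76, SE 0.17, adjusted p = 0.017). Before that stage the strains lay together, with 13.11 and 13.06 at 24 h and 13.10 and 13.12 at 20% in nsf1∆. FAS2 read 11.04, 11.00 and 10.95 in nsf1∆ against 11.45, 11.38 and 11.67 in M2, again without overlap, a difference of 1.42-fold (-0.51, SE 0.11, adjusted p = 0.018). At the earlier stages FAS2 in nsf1∆ read 12.61 and 12.56, then 12.85 and 12.78.

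HFA1 was higher in nsf1∆ at 85%, at 8.32, 8.53 and 8.22 against 7.78, 8.15 and 7.54 in M2, without overlap (0.53, SE 0.15, adjusted p = 0.043). At the earlier stages HFA1 read 7.70 and 7.55, then 8.01 and 7.92, in nsf1∆. Each of these calls was lost when 1 array was left out, FAS1 without nsf1∆ 85% replicate 2 (adjusted p = 0.059), FAS2 without M2 85% replicate 3 (adjusted p = 0.061), and HFA1 without nsf1∆ 85% replicate 2 or M2 85% replicate 3 (adjusted p = 0.14 for both) and without most other arrays. HFA1 also lost its call when the arrays were shifted to one median (adjusted p = 0.054) and after a repeated quantile normalization (adjusted p = 0.052). In the t-test of the paper's methods, without adjustment, FAS2 passed but FAS1 and HFA1 did not.

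None of the 23 sterol genes passed between the strains at 85% in limma, and 6 had an unadjusted p under 0.05. With array weights 6 of the 23 were called, with HMG1 (-0.86), MVD1 (-0.50), HMG2 (-0.41) and IDI1 (-0.28) lower in nsf1∆ and ERG7 (0.45) and ERG6 (0.33) higher, and with the replicate block HMG2 was called (-0.43, adjusted p = 0.048). The t-test of the paper's methods, without adjustment, called 1 of the 23, IDI1, lower in nsf1∆ (-0.27, p = 0.03). Without nsf1∆ 85% replicate 2, ERG7 (0.71, adjusted p = 0.023) and ERG24 (0.56, adjusted p = 0.046) were called higher in limma. In the fit with all arrays, ERG1 differed by 0.02 (95% interval -0.37 to 0.41), ERG5 by 0.06 (-0.46 to 0.59) and ERG11 by -0.20 (-0.84 to 0.43). ERG7 read 10.34, 9.58 and 9.95 in nsf1∆ against 9.32, 9.38 and 9.62 in M2, and its difference of 0.52 (95% interval 0.17 to 0.87) had an adjusted p of 0.065. OLE1 differed by 0.04 (95% interval -0.15 to 0.22).

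**Figure D4:**
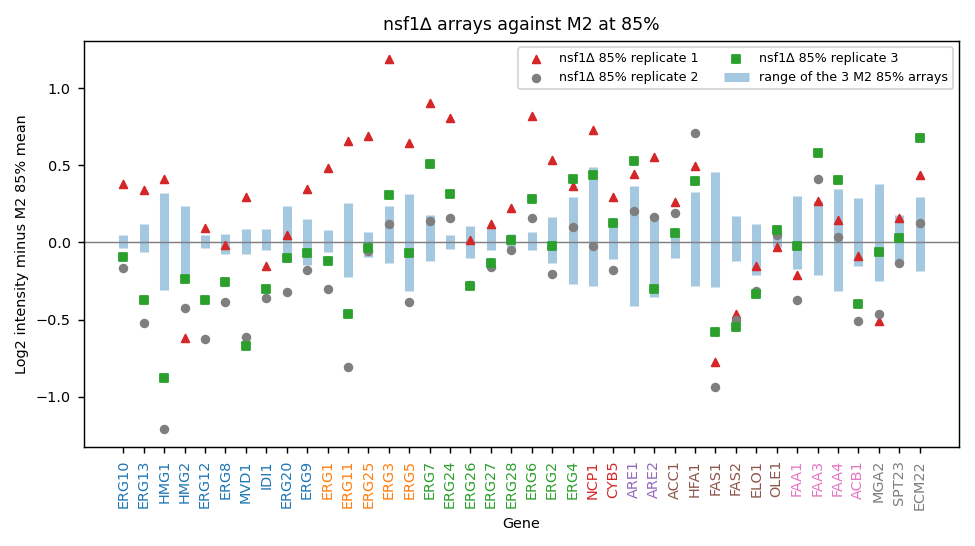
Log2 intensity of each of the 3 nsf1∆ arrays at 85% (points) minus the mean of the 3 M2 arrays at 85%, for the 40 members, with the range of the M2 arrays as bars. Replicate 1 (triangles) is above the other nsf1∆ arrays in nearly all sterol genes, and all 3 nsf1∆ arrays lie below the M2 range for FAS1 and FAS2.

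The median difference between nsf1∆ and M2 at 85% was -0.24 for the early sterol genes and 0.20 for the late sterol genes that need no oxygen. Which members were called at 85% depended on replicate 1 of nsf1∆. Without that array, 5 members were lower and 0 were higher in nsf1∆, and FAS1 and FAS2 were joined by HMG1 (-1.04, adjusted p = 0.008), ERG13 (-0.44) and MVD1 (-0.65). HMG1 read 10.24, 8.62 and 8.95 in nsf1∆ against 9.81, 9.52 and 10.15 in M2, so replicate 1 lay above the M2 arrays and the other two below them. With all arrays its difference was -0.56 (95% interval -1.23 to 0.11, adjusted p = 0.28).

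**Figure D5:**
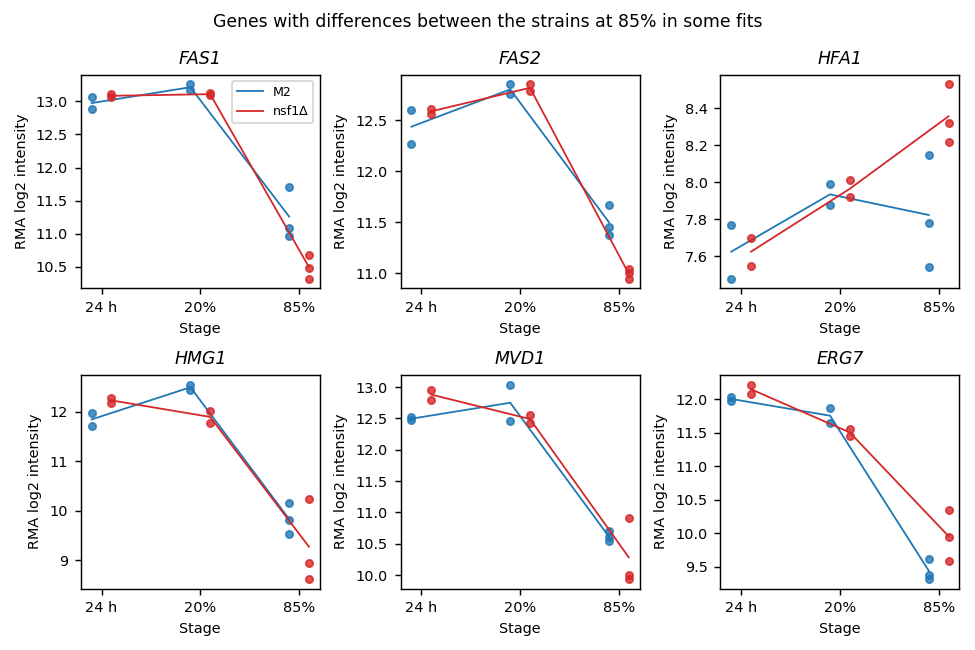
RMA log2 intensity of FAS1, FAS2, HFA1, HMG1, MVD1 and ERG7 on each array (points) by stage, with lines through the group means, M2 in blue and nsf1∆ in red. Each panel has its own vertical scale. FAS1 and FAS2 separate the strains at 85%, while 1 nsf1∆ array of HMG1 and MVD1 lies above the M2 arrays and the other two below them.

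Whether a course over the stages differed between the strains was tested as an interaction, and 0 of 40 members passed in any of the 3. From 24 h to 20% 1.60% of all probe sets passed and 3 members had an unadjusted p under 0.05, from 20% to 85% 0.200% and 6 members, and from 24 h to 85% 2.00% and 6 members. The interaction over the whole interval was -0.88 for FAS1 (SE 0.26, adjusted p = 0.11) and -0.65 for FAS2 (SE 0.18, adjusted p = 0.085). The estimate was below 0 for 10 of 10 early sterol genes and for 2910 of all 5498 probe sets. The median of the early genes was -0.47, and the largest estimate was that of HMG1 (-0.94, SE 0.49, adjusted p = 0.35). Part of this shift lay at 24 h, where nsf1∆ was above M2 in 10 of 10 early genes (median 0.24, 0 called). At 85% their median difference was -0.24. Without nsf1∆ 85% replicate 1, HMG1 (-1.43, adjusted p = 0.018) and MVD1 (-1.03, adjusted p = 0.037) passed.

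Other genes around the pathway changed in M2 between 24 h and 85% in both directions, as did all probe sets (38.0% rose and 35.2% fell), and with so few genes most of these counts lie near those shares. Of 11 genes of sterol uptake, transport and turnover 3 rose and 5 fell, among them SUT1, a regulator of sterol uptake (3.12, SE 0.24, adjusted p = 7.8e-08), and ATF2, which acetylates sterols (-3.79, SE 0.23, adjusted p = 9.9e-09). Of 11 regulators and helpers of sterol synthesis 5 rose and 4 fell, with HAP1, a heme-responsive activator, at 2.44 (SE 0.22, adjusted p = 3.2e-07) and CBR1, cytochrome b5 reductase, at -1.57 (SE 0.14, adjusted p = 3.5e-07). Of 10 genes of fatty acid elongation, activation and supply 2 rose and 8 fell, and ELO3, the elongase of very long chains, had a change of -5.40 (SE 0.24, adjusted p = 9.3e-10), larger than that of any of the 40 members.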

How the data were processed

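RNA of M2 and M2 nsf1∆ was hybridised to Affymetrix yeast arrays. The deposited log2 intensities are the output of RMA as run by the authors (background correction, quantile normalization between arrays, and 1 summary value for the probes of each set). Its version is not given in the sources used here. No sample column was left out. Of 10928 probe sets, the 5498 paired with 1 S. cerevisiae gene were tested, which leaves out 1747 for S. pombe, 213 controls, 1 shared by several genes and all without a gene. Precision is limited by the 2 or 3 arrays of a group.

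All contrasts came from 1 limma fit (version 3.58.1, R 4.3.3) of the 6 group means, with 8 residual degrees of freedom and 5.14 from the prior. Within a contrast, p-values were adjusted by Benjamini-Hochberg over all tested probe sets, and 0.05 was the threshold. Other steps used Python 3.11.15, numpy 2.4.6, pandas 2.3.3 and matplotlib 3.10.9. No covariate was fitted. The members and lists were chosen with earlier results of these data known. Array values are given for the oxygen-requiring enzymes, for the largest called rise and fall of each role in M2 at 85% and at 20% against 24 h, and for members called between the strains. HMG1 and ERG7, and the pairs of related genes, were singled out after their values were seen. At most 2 other pathway genes per list and contrast are named, those with the largest called change in each direction, apart from AUS1, PDR11 and HEM13, which were also chosen after their values were seen.

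On data simulated for M2 at 85% against 24 h (5498 probe sets, 50 changed by each size), the fit recovered 38% of changes of 0.5 on the log2 scale, 90% of 1, and 100% of 1.5 and 2, and 15 of 179 calls were false. The simulation changed 200 probe sets, all upward, whereas 4026 were called in the real contrast. The adjustment depends on that share, so the recovery may differ there. Alternatives were other scaling of the arrays, a filter on dim probe sets, all probe sets, an intensity trend, array weights, the replicate number as a block, only the arrays of a contrast, each array left out, a fold change of at least 2, and the methods' t-test. Replicate numbers were not treated as pairs in the main fit, and whether they pair the arrays could not be decided. Promoter and protein sequences were not used here.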

Additional observations from a re-analysis of the deposited data

Results flagged for a closer look

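Among the regulators of sterol and low-oxygen genes, 2 followed a different course in the strains. MOT3, a repressor of sterol and anaerobic genes, rose by 1.38 (SE 0.21, adjusted p = 0.00015) from 24 h to 20% in M2, where nsf1∆ changed by 0.08 (SE 0.21, adjusted p = 0.79), and the interaction was -1.30 (SE 0.30, limma adjusted p = 0.046). It read 7.44 and 7.47 at 24 h and 8.65 and 9.03 at 20% in M2, against 8.03 and 8.33, then 8.41 and 8.11 in nsf1∆. ROX1, a heme-induced repressor of genes of low oxygen, rose by 1.91 (SE 0.20) from 24 h to 85% in M2 and by 0.63 (SE 0.20) in nsf1∆, with an interaction of -1.28 (SE 0.28, limma adjusted p = 0.033). At 85% ROX1 read 12.46, 12.31 and 12.64 in M2 and 12.01, 11.47 and 11.64 in nsf1∆, without overlap. Its interaction also draws on 24 h, where the mean was higher in nsf1∆. There, 0 of the 11 regulators and helpers of sterol synthesis were called between the strains. Both calls were fragile. With 1 array left out, MOT3 lost its call without 8 of the 14 arrays (-1.11 to -1.49, adjusted p up to 0.24) and ROX1 without 9 (adjusted p up to 0.15), and ROX1 also lost it after a repeated quantile normalization (-1.16, adjusted p = 0.052). MOT3 also lost it with all probe sets of the table (adjusted p = 0.069) and with only the arrays of the contrast (adjusted p = 0.052).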

How the results depend on the processing

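Over 11463 comparisons of a value or call with an alternative, 97.0% stayed on the same side of the threshold, 272 lost a call and 70 gained one. Direction was compared only where the main fit or the alternative made a call, and 0 of those reversed. The share includes values that were called in no fit, such as 920 of 920 between the strains at 24 h, and fits without an array from outside the contrast. Requiring a fold change of at least 2 left 0 members from 24 h to 20% and 19 from 24 h to 85% in M2, and 1, 23 and, from 20% to 85%, 19 in nsf1∆; it left 0 between the strains at 85%. There, array weights gave 11 calls, the replicate block 5, and only the arrays of the contrast and the methods' t-test after Benjamini-Hochberg 0 (2 before adjustment). The interaction from 24 h to 85% gave 1 call with an intensity trend (FAS2) and 1 with the replicate block (FAS1). After group means were subtracted, same-numbered arrays correlated above 0.1 in 7 of 31 pairs (-0.51 to 0.57). The highest was between M2 and nsf1∆ replicate 3 at 85%. This cannot decide whether the numbers pair the samples. Arrays with different numbers were not compared, and in groups of 2 the deviations mirror each other.

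With each array left out, 2 to 15 members were called from 24 h to 20% in M2 (2 without M2 24 h replicate 1 and 5 without M2 20% replicate 1) and 2 to 12 in nsf1∆ (2 without nsf1∆ 20% replicate 2, 6 and 7 without nsf1∆ 24 h replicate 1 and replicate 2). The range was 2 to 5 between the strains at 85%, 0 to 1 for the interaction from 24 h to 20% and 0 to 2 for that from 24 h to 85%, and 25 to 38 over the changes to 85%. The causes were not tested. Every member has 1 probe set, so other probe sets could not be tried.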

Other observations

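Genes of the mitochondrial fatty acid synthesis pathway, which is separate from the cytosolic synthase, changed in both directions in M2 between 24 h and 85%. Of 7, 3 rose and 2 fell, near the 38.0% and 35.2% of all probe sets that did, and the same background applies to the counts that follow. Named here are OAR1, a ketoacyl-ACP reductase, at 0.90 (SE 0.18, limma adjusted p = 0.00056) and PPT2, a phosphopantetheine transferase, at -1.02 (SE 0.14, adjusted p = 1.8e-05). Of 8 triacylglycerol genes and regulators of lipid genes 3 rose and 1 fell. OPI1, a repressor of phospholipid genes, changed by 2.39 (SE 0.12, adjusted p = 2.8e-09) and by 2.59 (SE 0.12) in nsf1∆, while INO4, a subunit of the activator that Opi1 opposes, changed by -0.71 (SE 0.16, adjusted p = 0.0011). Of 7 heme genes and genes of low oxygen 4 rose and 2 fell. COX5B and ANB1, both known as genes of low oxygen, went opposite ways, COX5B at 1.72 (SE 0.11, adjusted p = 1.6e-08) and ANB1 at -2.85 (SE 0.17, adjusted p = 9.5e-09).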
